A study of Mus musculus with 10 samples.

Results

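The subject is the interaction of 2 leukaemia alleles, Npm1c and Flt3-ITD, in the promoter contacts of mouse haematopoietic stem and progenitor cells (HSPCs). It was measured as double mutant (DM) minus Npm1c minus Flt3-ITD plus wild type (WT), on log2 of the deposited contact score plus 1. All 8 HSPC libraries of the 10 in the series entered it, 2 biological replicates in each of 4 groups. The DM mice were Npm1flox-cA/+;Flt3ITD/+;Mx1-Cre+, the Npm1c mice Npm1flox-cA/+;Mx1-Cre+, the Flt3-ITD mice Flt3ITD/+, and the WT mice wild-type, and all were C57BL/6. Per the labels, bone marrow cells were depleted of lineage-positive cells with a kit, so each library is a mixture of progenitor types. Mx1-Cre is driven by an interferon-inducible promoter; it is named for the DM and Npm1c mice and not for the Flt3-ITD and WT mice, so Cre and the Npm1 allele cannot be told apart. Ages, the induction of Cre and the number of animals per library are not given in the sources used here. Contact scores hold no expression values, so the cell type was not checked by marker RNA.

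Npm1c is a frameshift of nucleophosmin, a nucleolar chaperone, that sends the protein to the cytoplasm. Flt3-ITD is an internal tandem duplication in a receptor tyrosine kinase that leaves the receptor active without its ligand. Both are frequent in acute myeloid leukaemia and often occur together. Promoter-capture Hi-C ligates DNA ends that lay close to each other in fixed nuclei and then enriches ligation products that hold a promoter fragment, here called the bait. It thereby ranks which distant fragments a promoter meets more often than background, and such fragments can hold enhancers or other promoters.

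The interaction is 0 where the effects of the alleles add up. A negative value means that DM HSPCs scored below that sum, and a positive value that they scored above it. It equals the effect of Npm1c in the presence of Flt3-ITD (DM minus Flt3-ITD) less the effect of Npm1c without it (Npm1c minus WT). The deposited score is never negative, and the sources used here do not say what its unit is, so depth is unknown. The list held 88421 pairs on autosomes and X. Each of them reached 5 in both libraries of some HSPC group (called passing below), so the list was selected on the same scores that the interaction uses.

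Of 2833 baits with at least 10 listed pairs, 212 had an interaction of the bait mean past an adjusted p of 0.05 (7.48% called). The interaction was negative at 204 of them (7.20%) and positive at 8 (0.282%). The label of synergy therefore does not describe most of the called departures, which lay below the sum of the single-mutant effects. The median interaction over all baits was -0.21, and 1977 of the 2833 were negative. Libraries also differed in general level: the share of pairs at 5 or more was 60.8% and 61.8% in DM, 51.8% and 61.5% in Npm1c, 64.1% and 64.0% in Flt3-ITD, and 53.4% and 46.9% in WT libraries. The interaction in that share was -9.22 percentage points (exact permutation test over libraries, two-sided, p = 0.286). The smallest p that this test can give is 0.0286, because only the split of DM with WT from the single mutants matters. After quantile normalization, which gives all libraries the same distribution, the median was -0.01 and 226 baits were called (7.98%). Of these, 142 had a negative (5.01%) and 84 a positive interaction (2.97%), with 150 of the 212 calls kept. With each library centred on its mean instead, an alternative chosen after seeing the data, 126 had a negative and 67 a positive interaction.

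The way pairs entered the list moved with the sign. Of the 88421 pairs, 27229 (30.8%) passed 5 only in DM or WT HSPCs, 28872 (32.7%) only in a single mutant, and 32320 (36.6%) on both sides. With bait means refitted on the pairs that passed in DM or WT, the median was 0.14, and 1 of 1704 baits was called, Fgfbp3, with 234 at an unadjusted p under 0.05. On the pairs that passed in Npm1c or Flt3-ITD, the median was -0.54, and 581 of 1841 baits were called. On the pairs that passed in all 4 groups, which neither side favours, the median was -0.25, 1 of 135 baits was called and 21 had an unadjusted p under 0.05. On the HSPC pairs that the neutrophil list also held, the median was -0.17, 0 of 268 baits were called by limma and 30 had an unadjusted p under 0.05.

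**Figure D1:**
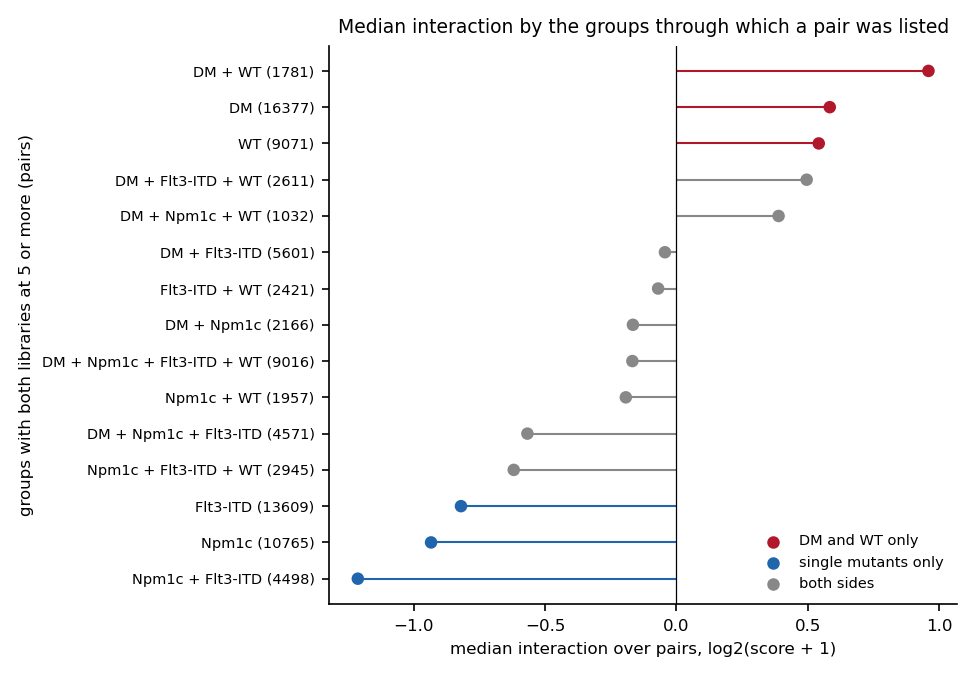
Median interaction over pairs (horizontal, log2 of score plus 1) for each set of groups in which both libraries reached 5 (vertical, with the number of pairs). Pairs listed through DM and WT alone had positive medians (0.96, 0.58 and 0.54), pairs listed through the single mutants alone negative ones (-0.82, -0.94 and -1.21), and pairs listed in all 4 groups -0.17.

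At the 204 baits with a negative interaction both single mutants mostly lay above the other groups. Both single mutants averaged above WT at 199 of them, against 65.3% of all baits. At 195 (95.6%) both single mutants averaged above both DM and WT HSPCs, against 31.4% of all baits. At 132 (64.7%) all 4 single-mutant libraries lay above all 4 DM and WT libraries, against 9.57% of all baits. At 115 (56.4%) DM was the lowest group, against 30.0% of all baits. At 68 (33.3%) both DM libraries lay below the other 6, against 12.1% of all baits. These patterns come from the same scores as the calls and are descriptions.

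The size of each simple effect shows the same turn. Over the 204 baits the median of Npm1c minus WT was 0.54, while that of DM minus Flt3-ITD was -0.61. The median of Flt3-ITD minus WT was 0.58, while that of DM minus Npm1c was -0.60. Over all 2833 baits these 4 medians were 0.13, -0.10, 0.26 and 0.01. The order of the groups at these baits was thus high in either single mutant and low in DM and WT.

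**Figure D2:**
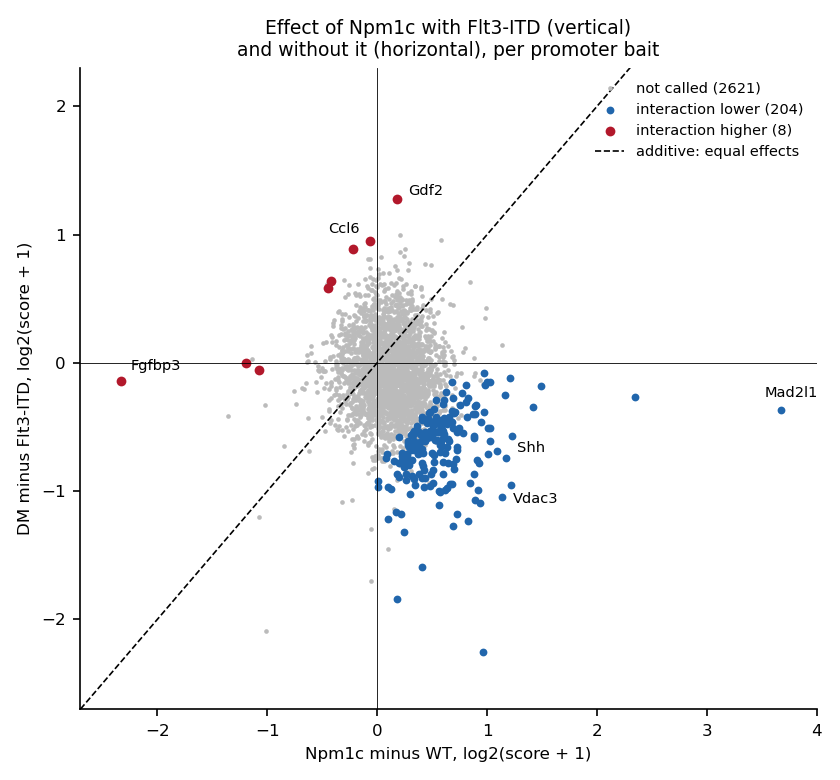
Effect of Npm1c per promoter bait without Flt3-ITD (horizontal, Npm1c minus WT) and with it (vertical, DM minus Flt3-ITD), in log2 of score plus 1. The 204 baits with a negative interaction lie below the additive line, nearly all of them to the right of 0, and of the 8 with a positive interaction Fgfbp3 lies at -2.33 across and -0.14 up.

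The interaction was more negative in the classes of longer distance, although no class passed after adjustment. For pairs under 200 kb apart the interaction of the library means was -0.14, and for 200 kb to 1 Mb it was -0.23. For pairs over 1 Mb apart the library means were 2.09 and 2.01 in DM, 1.77 and 2.37 in Npm1c, 2.36 and 2.65 in Flt3-ITD, and 1.65 and 1.54 in WT HSPCs, an interaction of -0.93. For the 83 pairs on different chromosomes the means were 2.94 and 2.11 in DM, 3.56 and 3.98 in Npm1c, 3.72 and 3.13 in Flt3-ITD, and 1.57 and 0.73 in WT HSPCs, an interaction of -3.52. All 4 single-mutant libraries lay above all DM and WT libraries in this last class. Pairs of every class were listed on these same scores, so the order of the groups may be partly set by the list. None of the 4 classes passed after Benjamini-Hochberg adjustment (exact permutation tests, two-sided, p = 0.314, 0.171, 0.0857 and 0.0286, adjusted 0.314, 0.229, 0.171 and 0.114). The p of 0.0286 is the smallest that this test can give, so a class that reached it alone could not pass after adjustment. The adjusted test therefore could not decide on the pairs on different chromosomes. A single bait, Mad2l1, gave 27 of the 83 pairs, and without it the interaction of the other 56 pairs was -2.97.

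**Figure D3:**
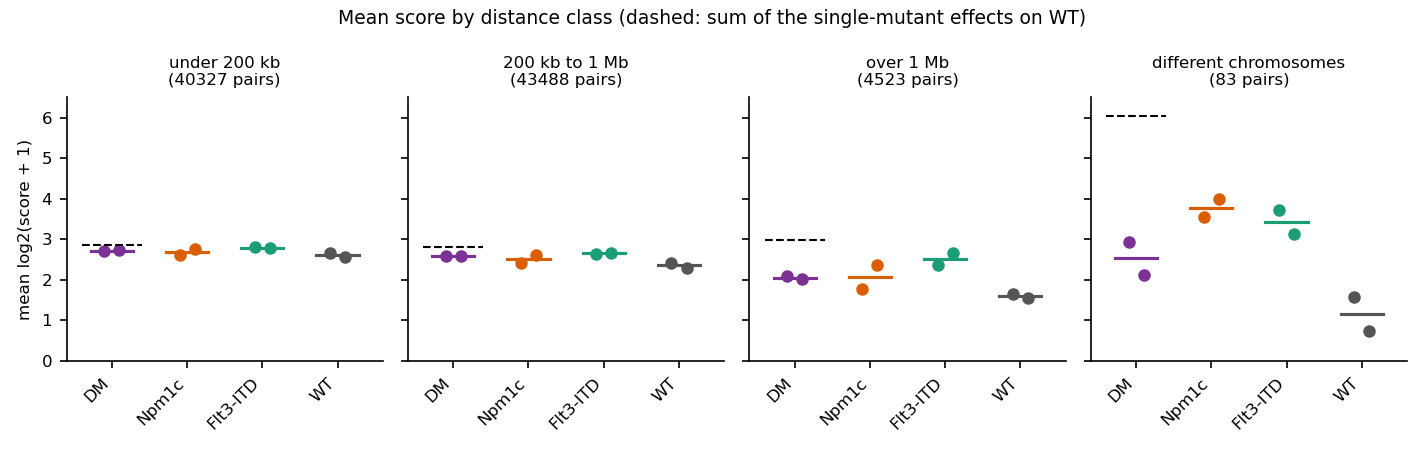
Mean log2 of score plus 1 over pairs in each of the 8 libraries (points; bars are group means) for 4 distance classes, with the sum of the single-mutant effects on WT as a dashed line at DM. The DM libraries lie under the dashed line in each class, by 0.14, 0.23, 0.93 and 3.52.

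The 204 baits also differed from all tested baits in where their listed pairs lay. Of their pairs, 17.0% were over 1 Mb apart or on another chromosome, against 5.26% for all baits, and 28% had another bait at the far end, against 19.2%. The median distance was 245.4 kb, against 202.8 kb. Chromosome 13 had 14.5% of its baits called and chromosome 5 had 11.5%, against 7.48% overall. Of the 212 called baits, 66 had another called bait within 500 kb and 18 had at least 2; the same count over all tested baits was not made.

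The 15 largest negative interactions at baits with a gene were taken by the rule given with the methods. Mad2l1, a component of the spindle assembly checkpoint (chr6:66534905-66540307, 33 pairs), stood first. Its bait means were 3.61 and 1.80 in DM, 4.33 and 5.10 in Npm1c, 3.67 and 2.48 in Flt3-ITD, and 1.84 and 0.23 in WT HSPCs. The interaction was -4.04 (SE 0.81, adjusted p = 0.0155). The Npm1c libraries were highest, the DM and Flt3-ITD libraries overlapped, and so did DM and WT. Of its pairs, 27 joined chromosome 6 to chr11:46130282-46709935, around Timd2 and Dppa1; 10 of these passed in DM, 26 in Npm1c, 10 in Flt3-ITD and 0 in WT HSPCs. The call was lost when DM 2, Flt3-ITD 1 or WT 2 was left out (adjusted p up to 0.0596, interactions of -4.95 to -3.14). It was also lost with limma's trend and robust options (adjusted p = 0.172), with no logarithm (0.0599), with at least 1 pair per bait (0.0991) and on pairs that passed in DM or WT (0.206).

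Rad51c, which acts in repair by homologous recombination, shares a bait with Tex14, a gene of germ-cell bridges (chr11:87389853-87406408, 13 pairs). The bait means were 1.58 and 1.66 in DM, 2.59 and 2.64 in Npm1c, 2.76 and 2.93 in Flt3-ITD, and 1.84 and 1.74 in WT HSPCs. The interaction was -2.06 (SE 0.22, adjusted p = 0.00123). The 4 single-mutant libraries lay above the other 4 with no overlap. Contacts fell into 2 windows: 7 pairs within Trim37, a ubiquitin ligase gene 166.5 to 218.8 kb away, and 6 pairs with chr11:101634141-101736539, over 14 Mb away, which holds Rdm1, Arl4d and Dhx8. In the far window the means were 0.81 and 1.24 in DM, 2.31 and 2.46 in Npm1c, 2.80 and 3.15 in Flt3-ITD, and 0.77 and 0.88 in WT HSPCs. In the near window they were 2.24 and 2.01 in DM HSPCs and 2.47 to 2.84 in the other 6 libraries, so there WT lay with the single mutants.

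The next 3 called baits hold no gene start and mostly contact the same far region (chr11:101598769-101736539). They lie at chr11:87421568-87425534, chr11:87426056-87437438 and chr11:87443485-87449901, and their interactions were -2.03 (SE 0.38), -2.0 (SE 0.46) and -3.22 (SE 0.63), with adjusted p of 0.0127, 0.0232 and 0.0137. At the last of these, with all 14 pairs there, means were 1.45 and 1.27 in DM, 2.42 and 4.31 in Npm1c, 3.32 and 3.89 in Flt3-ITD, and 2.02 and 2.78 in WT HSPCs. DM was lowest there, and WT overlapped Npm1c. The single pair of the Rad51c bait with the Rdm1 fragment (chr11:101634141-101638463) was listed at 0 in both DM and both WT libraries and scored 24.8 and 10.4 in Npm1c and 15 and 10.5 in Flt3-ITD HSPCs (interaction -7.86, SE 0.60, adjusted p = 0.0163). Rdm1 encodes a protein with similarity to the recombination factor RAD52.

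Shh encodes a secreted morphogen, and its best known distant enhancer in the mouse, which drives it in the limb bud, lies in an intron of Lmbr1. All 12 listed pairs of the Shh bait (chr5:28463005-28467167) ended inside Lmbr1 (chr5:29257995-29341604), 793.1 to 875.3 kb away. The bait means were 2.03 and 1.96 in DM, 2.98 and 2.95 in Npm1c, 2.63 and 2.85 in Flt3-ITD, and 1.83 and 1.76 in WT HSPCs. The 4 single-mutant libraries lay above the other 4 by more than the spread of any group. The interaction was -1.92 (SE 0.22, adjusted p = 0.00123), and 2 of the pairs passed 5 in DM, 9 in Npm1c, 6 in Flt3-ITD and 2 in WT HSPCs. None of the pairs was in the neutrophil list.

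Igfbp3, a binding protein of insulin-like growth factors (chr11:7212991-7216491), had 17 pairs, all with chr11:8230511-8408748, a window that overlaps no protein-coding gene at the listed fragments. The bait means were 1.92 and 2.07 in DM, 2.48 and 2.84 in Npm1c, 3.17 and 3.18 in Flt3-ITD, and 2.06 and 1.80 in WT HSPCs. Again both single mutants lay above both other groups without overlap. The interaction was -1.91 (SE 0.25, adjusted p = 0.0019).

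**Figure D4:**
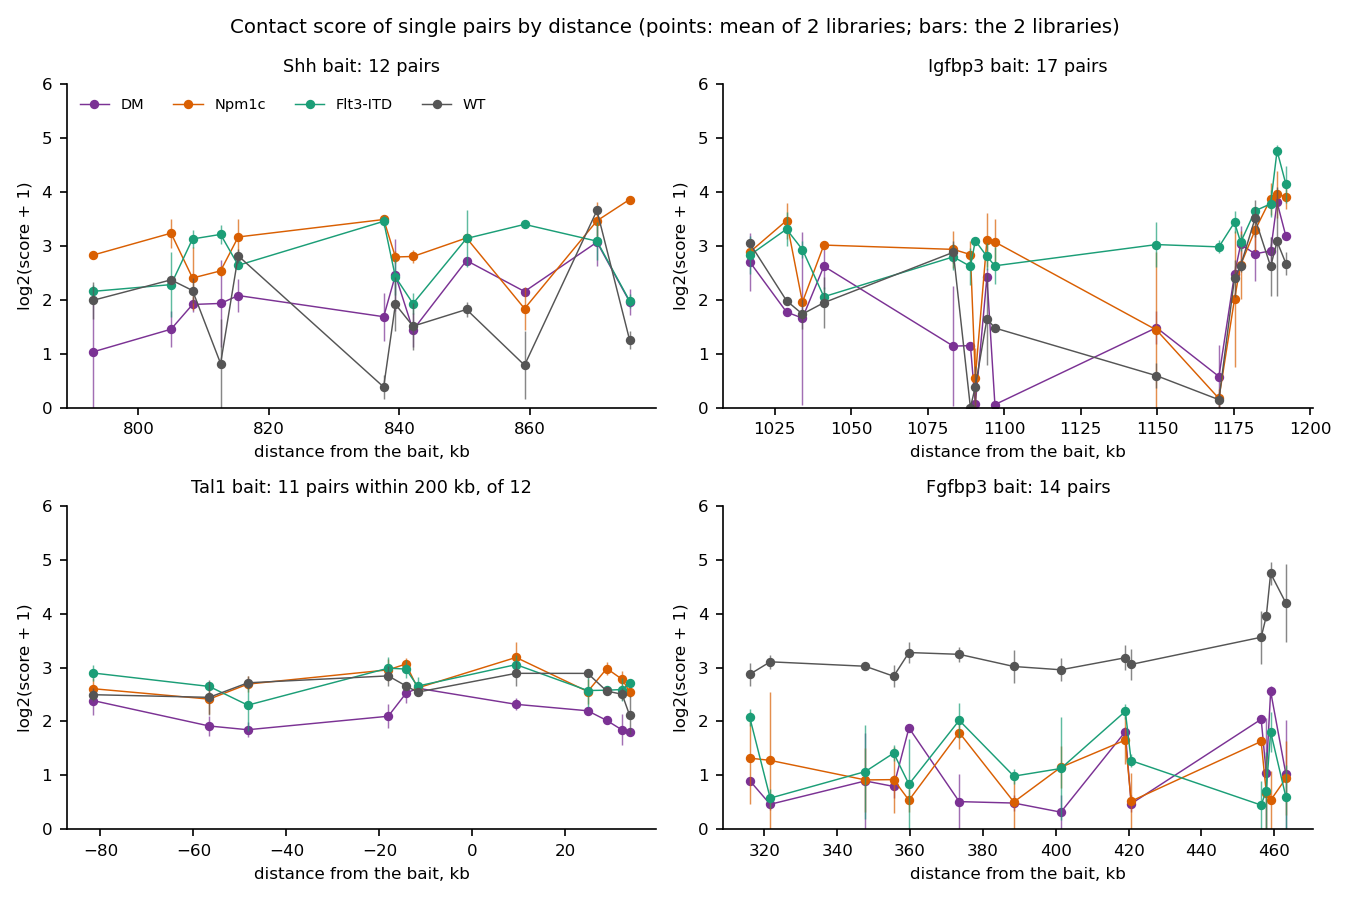
Log2 of score plus 1 for single pairs of 4 baits against signed distance from the bait in kb, as the mean of the 2 libraries of a group (points) with both libraries at the ends of the bars. At Shh and Igfbp3 the single mutants lie mostly above DM and WT, at Tal1 DM lies lowest over most of the locus, and at Fgfbp3 all 14 pairs are highest in WT.

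Vdac3, one of the voltage-dependent anion channels of mitochondria (chr8:22589865-22595364), had 19 pairs 33.2 to 664.4 kb away. Its means were 2.42 and 2.03 in DM, 3.38 and 3.34 in Npm1c, 2.96 and 3.57 in Flt3-ITD, and 2.27 and 2.17 in WT HSPCs. The interaction was -2.18 (SE 0.29, adjusted p = 0.0019), and the single mutants were clear of both other groups. The far ends include Ank1, of the red cell membrane skeleton, Kat6a, a histone acetyltransferase, and Ikbkb, a kinase of NF-kappaB signalling. The other mitochondrial gene with a call was Uqcrh, a subunit of complex III, on 1 bait with Lrrc41 (chr4:116071132-116078696, 21 pairs). Its means were 2.51 and 2.29 in DM, 3.26 and 3.81 in Npm1c, 3.28 and 3.53 in Flt3-ITD, and 2.92 and 3.02 in WT HSPCs (interaction -1.57, SE 0.28, adjusted p = 0.0106). Here WT lay between DM and the single mutants. The call was lost without DM 2 or Flt3-ITD 2 (adjusted p up to 0.0674). In the limma refit on pairs that passed in DM or WT it was lost too (interaction -1.05, adjusted p = 0.25).

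From the Uqcrh bait 3 pairs reached the Tal1 locus 987.4 to 1088.3 kb away, at the fragments of Cmpk1, Stil and Pdzk1ip1. Tal1 is a basic helix-loop-helix factor that blood stem cells and red cell precursors need, Stil acts in centriole duplication, and Cmpk1 is a nucleotide kinase. In this locus 3 neighbouring baits were called themselves: Cmpk1 (chr4:114985477-114987698), Tal1 (chr4:115056162-115069246) and Pdzk1ip1 (chr4:115084361-115090720). Their promoter windows, 250 bases before to 50 after the start as RefSeq gives them on GRCm38.p6, are shown because the Cmpk1 and Tal1 baits both had a listed contact with the Pdzk1ip1 fragment. Capitals mark a GATA-type motif at Tal1 (AGATAA, on the other strand), an ETS-type motif at Cmpk1 (TTCCGG, on the other strand) and an E-box at Pdzk1ip1 (CACGTG). The windows are chr4:115056176-115056475 (+), chr4:114987179-114987478 (-) and chr4:115088458-115088757 (+).
Tal1: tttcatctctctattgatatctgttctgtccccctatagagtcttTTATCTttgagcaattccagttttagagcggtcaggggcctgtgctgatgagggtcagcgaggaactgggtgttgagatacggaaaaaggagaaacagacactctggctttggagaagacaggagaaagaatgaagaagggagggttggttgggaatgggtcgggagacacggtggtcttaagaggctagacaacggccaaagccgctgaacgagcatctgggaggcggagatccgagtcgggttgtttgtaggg
Cmpk1: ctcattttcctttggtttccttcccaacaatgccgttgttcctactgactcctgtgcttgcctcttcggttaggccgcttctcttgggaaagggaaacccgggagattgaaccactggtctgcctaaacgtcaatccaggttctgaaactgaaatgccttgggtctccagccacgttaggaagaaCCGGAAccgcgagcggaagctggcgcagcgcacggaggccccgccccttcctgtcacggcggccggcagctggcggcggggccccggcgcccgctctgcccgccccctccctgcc
Pdzk1ip1: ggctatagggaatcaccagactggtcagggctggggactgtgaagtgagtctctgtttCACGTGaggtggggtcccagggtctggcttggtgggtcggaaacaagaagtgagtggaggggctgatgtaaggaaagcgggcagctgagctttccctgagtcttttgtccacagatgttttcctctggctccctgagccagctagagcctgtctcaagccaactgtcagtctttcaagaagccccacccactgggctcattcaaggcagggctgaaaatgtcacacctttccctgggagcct

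The motifs searched on both strands were the E-box CACGTG, the CCAAT box, the TATA box TATAAA, the STAT-type motif TTCNNNGAA, the GATA-type AGATAA, the RUNX-type TGTGGT and the ETS-type TTCCGG. The ETS-type and STAT-type motifs can overlap. Among 197 promoter windows of the baits with a negative interaction, 8.12% held AGATAA, 31.5% TTCCGG and 6.60% CACGTG. Among 2752 windows of all tested baits the shares were 7.34%, 26.2% and 8.58%, and among all 32851 windows in RefSeq's set 11.2%, 14.9% and 7.15%. CCAAT was in 31.5% of the windows of the negative baits, in 35.5% of those of all tested baits and in 37.4% of the whole set. For TGTGGT these shares were 10.7%, 12.7% and 16.8%, and for TATAAA 8.63%, 8.61% and 13.6%. TTCNNNGAA, the spacing that STAT5 binds, was in 10.7% of the windows of the negative baits, in 6.94% of those of all tested baits and in 8.30% of the whole set. A match describes letters in the window and is no measured binding.

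At the Cmpk1 bait the means were 1.72 and 1.74 in DM, 2.54 and 2.79 in Npm1c, 2.59 and 2.42 in Flt3-ITD, and 1.68 and 1.78 in WT HSPCs, over 10 pairs. The interaction was -1.71 (SE 0.23, adjusted p = 0.0019). DM and WT were level there. At the Tal1 bait, over 12 pairs, the means were 2.12 and 2.02 in DM, 2.88 and 2.57 in Npm1c, 2.89 and 2.61 in Flt3-ITD, and 2.33 and 2.45 in WT HSPCs (interaction -1.02, SE 0.25, adjusted p = 0.0269). Of the 11 Tal1 pairs within 81.5 kb, 0 passed 5 in DM, 6 in Npm1c, 6 in Flt3-ITD and 5 in WT HSPCs. At Pdzk1ip1, a small membrane protein gene whose fragments the Tal1 bait contacts, the means were 1.95 and 1.54 in DM, 2.90 and 2.67 in Npm1c, 2.54 and 2.31 in Flt3-ITD, and 2.54 and 2.42 in WT HSPCs (interaction -0.99, SE 0.26, adjusted p = 0.0385).

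Both DM libraries were lowest at Tal1 and at Pdzk1ip1. No listed pair of either bait passed in DM HSPCs, so the low DM level was partly set by the list. After quantile normalization neither was past the threshold (adjusted p = 0.0565 at Tal1 and 0.0816 at Pdzk1ip1), and Tal1 kept its call in 2 of the 8 fits without 1 library (those without Npm1c 1 or Npm1c 2; adjusted p up to 0.127).

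A different order of the groups was seen where the single mutants lay near WT and DM stood apart. Angpt2, a ligand of the Tie2 receptor (chr8:18739887-18741842), had 77 pairs within 216.9 kb, 43 of them in Mcph1. Its means were 2.16 and 2.11 in DM, 2.98 and 3.04 in Npm1c, 3.03 and 2.74 in Flt3-ITD, and 2.93 and 2.93 in WT HSPCs. Of the pairs, 4 passed 5 in DM, 56 in Npm1c, 43 in Flt3-ITD and 55 in WT HSPCs. The interaction was -0.82 (SE 0.23, adjusted p = 0.0468), with Npm1c minus WT at 0.08, Flt3-ITD minus WT at -0.05 and DM minus Npm1c at -0.87. After quantile normalization the adjusted p was 0.0819, and the call held in 1 of the 8 fits without 1 library, that without Npm1c 1 (adjusted p up to 0.205). In the limma refit on pairs that passed in DM or WT the interaction was -0.59 (adjusted p = 0.301). Most of the pairs were listed through groups other than DM, so the low DM level was partly set by the list.

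**Figure D5:**
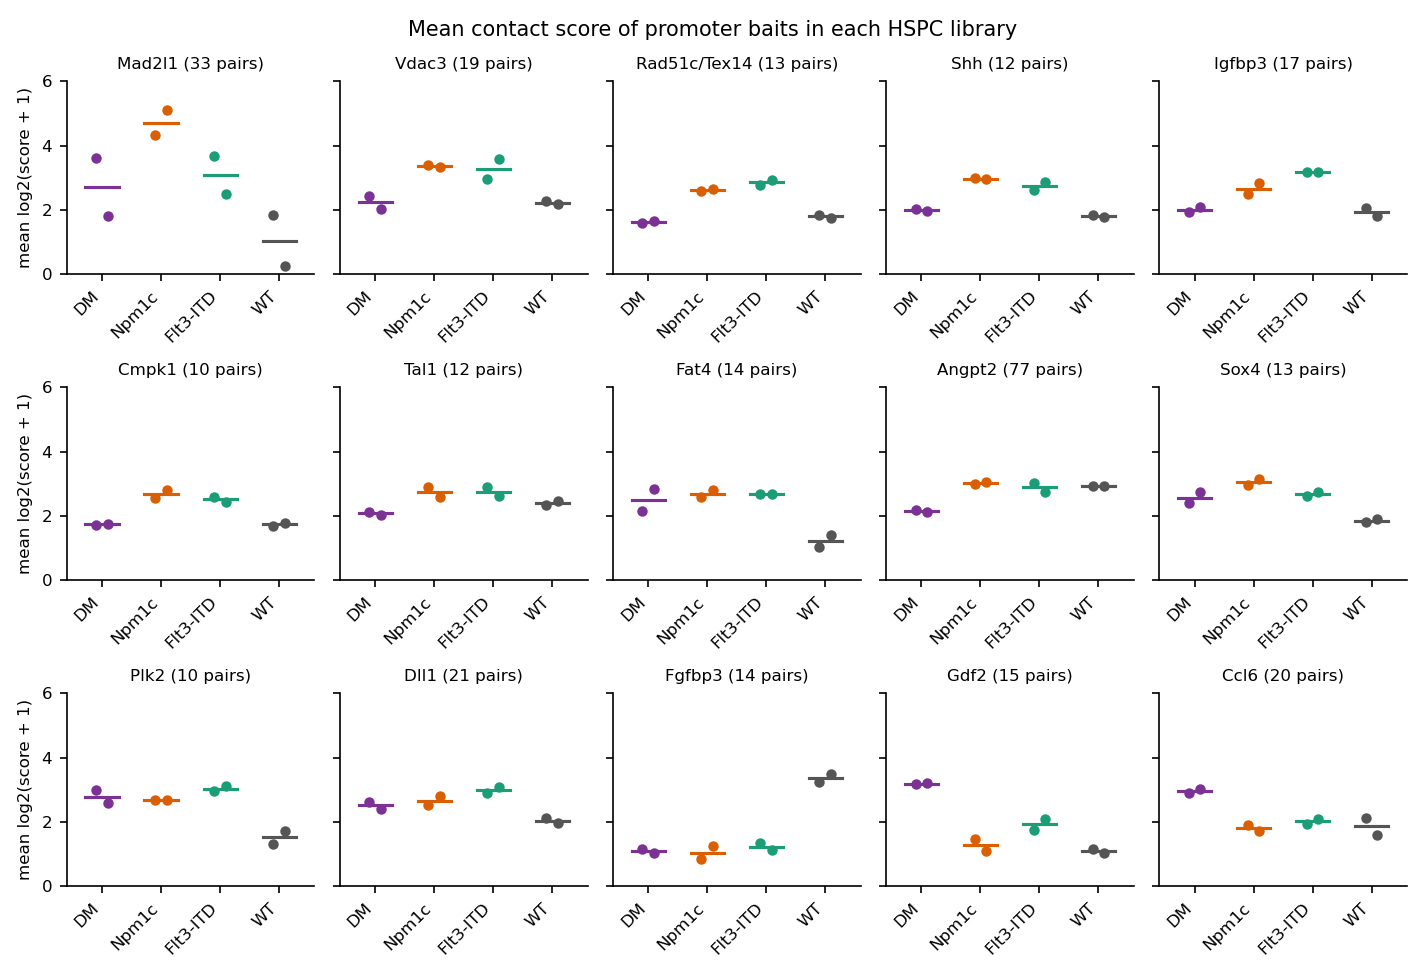
Bait means of log2 of score plus 1 in each library (points, bars at the group mean) for 15 baits, with groups in the order DM, Npm1c, Flt3-ITD and WT. Vdac3, Rad51c with Tex14, Shh, Igfbp3 and Cmpk1 are high in both single mutants, Angpt2 and Tal1 are lowest in DM, Plk2 and Fgfbp3 set WT apart, and Gdf2 and Ccl6 are highest in DM.

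At a further set of baits all 3 mutant groups lay above WT and the double mutant was not above the higher single mutant. Plk2, a polo-like kinase, had means of 2.98 and 2.58 in DM, 2.67 and 2.67 in Npm1c, 2.95 and 3.10 in Flt3-ITD, and 1.31 and 1.70 in WT HSPCs (interaction -1.42, SE 0.27, adjusted p = 0.0127). Sox4, a transcription factor of progenitors, had 13 pairs, 12 of them in Cdkal1 and 1 at the cell cycle factor gene E2f3. Its means were 2.38 and 2.74 in DM, 2.96 and 3.15 in Npm1c, 2.63 and 2.73 in Flt3-ITD, and 1.79 and 1.90 in WT HSPCs (interaction -1.33, SE 0.25, adjusted p = 0.0122). The Notch ligand gene Dll1, with 21 pairs around Ermard, had means of 2.62 and 2.40 in DM, 2.52 and 2.79 in Npm1c, 2.89 and 3.07 in Flt3-ITD, and 2.10 and 1.96 in WT HSPCs (interaction -1.09, SE 0.24, adjusted p = 0.0212). Fat4, an atypical cadherin, had an interaction of -1.67 (SE 0.31, adjusted p = 0.0122) with means of 2.14 and 2.83 in DM, 2.60 and 2.79 in Npm1c, 2.67 and 2.67 in Flt3-ITD, and 1.02 and 1.39 in WT HSPCs.

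In all 4 the WT libraries were lowest, and DM overlapped at least 1 single mutant. Passing pairs in DM, Npm1c, Flt3-ITD and WT numbered 5, 4, 8 and 1 at Plk2 and 4, 10, 6 and 1 at Sox4. They numbered 7, 9, 15 and 2 at Dll1 and 5, 8, 7 and 0 at Fat4. The pairs were listed mostly through the mutants, so the low WT level and the negative sign were partly set by the list. Without Flt3-ITD 2 none of the 4 was past the threshold. Plk2 also lost its call without DM 2, and Dll1 without DM 2, Npm1c 2, Flt3-ITD 1 or WT 2.

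On chromosome 13 a pair of gene clusters held several called baits each. In one, 5 zinc-finger genes between chr13:67451317 and chr13:67781318 had listed contacts with several genes of the same cluster. Their interactions were -1.80 at Zfp874a (SE 0.37), -1.08 at Zfp87 (SE 0.23), -0.99 at Zfp65 (SE 0.24), -1.66 at Zfp85 (SE 0.32) and -1.78 at Zfp493 (SE 0.31). The adjusted p-values were between 0.0101 and 0.0248, and after quantile normalization Zfp65 did not pass (adjusted p = 0.0825). At Zfp493 the means were 2.95 and 2.68 in DM, 3.34 and 3.93 in Npm1c, 3.26 and 3.75 in Flt3-ITD, and 2.58 and 2.52 in WT HSPCs. These proteins carry arrays of zinc fingers, and many of the family repress transposable elements through the corepressor Trim28.

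The histone gene cluster held the other group: Zfp322a (-1.37, SE 0.29, adjusted p = 0.0182), the linker histone gene H1f3 (-1.33, SE 0.37, adjusted p = 0.0488) and the fragment of H1f4 and H2bc6 (-1.10, SE 0.23, adjusted p = 0.0182). Zfp322a had 60 of its 64 pairs with chr13:21153444-22067731, a stretch with further histone genes 1304.6 to 2214.9 kb away. In that window the means were 1.86 and 1.84 in DM, 2.43 and 3.16 in Npm1c, 2.65 and 2.67 in Flt3-ITD, and 2.23 and 2.05 in WT HSPCs. Both DM libraries were lowest. Histone and zinc-finger genes have near-identical copies, and how the upstream mapping treated them is not given in the sources used here.

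Olfactory receptor genes, a large clustered family, gave 3 of the 15 largest negative interactions: Olfr382 (-1.96, SE 0.27, adjusted p = 0.00208), Olfr685 (-1.96, SE 0.33, adjusted p = 0.0082) and Olfr669 (-1.71, SE 0.36, adjusted p = 0.0179). Many of their far ends were other olfactory receptor genes of the same cluster. The rest of the 15 were Arl4a (-2.17), a small GTPase gene, Rdh14 (-1.76), a retinol dehydrogenase gene, and Gabarapl1 (-1.75), an autophagy gene. Gabarapl1 had 9 of its 21 pairs over 1 Mb away near Magohb, Styk1 and Ybx3, and its interaction on pairs at most 1 Mb apart was -0.86 and no longer past the threshold (adjusted p = 0.0696).

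The calls at Vdac3, Arl4a, Rad51c with Tex14, Olfr382, Shh, Igfbp3 and Cmpk1 held in all 8 fits that left out 1 library. Their interactions in these fits were -2.485 to -1.586. At each of these baits more pairs passed in either single mutant than in DM or WT HSPCs. The 8 fits kept that list, so the negative sign was partly set by it and keeping the call is no independent support. The refit on pairs that passed in DM or WT gave no value at these baits. Olfr685, Zfp493 and Gabarapl1 lost their calls without Flt3-ITD 2, and Olfr669 without that library or either DM library. Zfp874a lost its call without Flt3-ITD 2, DM 2 or WT 2, and Rdh14 without DM 1 or either Flt3-ITD library. Of the baits named so far with a gene, Tal1, Pdzk1ip1, Angpt2 and Zfp65 lost their call after quantile normalization.

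Among the 8 positive interactions, Fgfbp3, a carrier of fibroblast growth factors (chr19:36916623-36921054), had the largest value. Its means were 1.15 and 1.02 in DM, 0.83 and 1.23 in Npm1c, 1.32 and 1.12 in Flt3-ITD, and 3.23 and 3.49 in WT HSPCs. The interaction was 2.20 (SE 0.26, adjusted p = 0.00123). All 14 pairs, which reach the mitotic kinesin gene Kif11 and the insulin-degrading enzyme gene Ide 316.0 to 463.2 kb away, were listed through WT alone, so a high WT level and with it the positive sign were partly set by the list, and keeping the call in all 8 fits without 1 library is no independent support. The DM level was as low as that of either single mutant, with DM minus Npm1c at 0.06 and DM minus Flt3-ITD at -0.14. Both single mutants and DM lay below WT by about the same amount, and DM did not lie above WT.

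Another 2 baits without a gene start, chosen after their values were seen, lie in the region that Fgfbp3 contacts. They lie at chr19:37230686-37238929 (22 pairs, interaction 1.02, SE 0.26, adjusted p = 0.0308) and chr19:37336716-37339245 (16 pairs, interaction 1.20, SE 0.30, adjusted p = 0.0297), and their pairs end in and around Btaf1 and Cpeb3. The second had means of 1.64 and 1.85 in DM, 1.84 and 2.04 in Npm1c, 1.66 and 1.83 in Flt3-ITD, and 2.80 and 3.47 in WT HSPCs. The WT libraries were the highest at both. Both calls were lost without either DM library, either Flt3-ITD library or WT 2, and that of the bait at 37230686 also without Npm1c 2 (adjusted p up to 0.122).

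Of the 5 other positive baits 4 were highest in both DM libraries. Gdf2, which encodes the ligand BMP9 (chr14:33938373-33943288), had means of 3.18 and 3.20 in DM, 1.46 and 1.08 in Npm1c, 1.73 and 2.09 in Flt3-ITD, and 1.15 and 1.01 in WT HSPCs. The interaction was 1.09 (SE 0.26, adjusted p = 0.0248), and all 15 pairs were listed through DM alone. Ccl6, a chemokine gene of myeloid cells (chr11:83588530-83594986), had means of 2.90 and 3.02 in DM, 1.88 and 1.70 in Npm1c, 1.94 and 2.08 in Flt3-ITD, and 2.12 and 1.59 in WT HSPCs. Its interaction was 1.01 (SE 0.27, adjusted p = 0.0395), and all 20 pairs passed 5 in DM, against 0 in Npm1c, 1 in Flt3-ITD and 0 in WT HSPCs. Since these pairs were listed because DM was high, the direction was partly set by the list.

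Sprn, which encodes the prion-like protein Shadoo, had an interaction of 1.11 (SE 0.28, adjusted p = 0.0324), with 6 of its 13 pairs in Zfp941. Of these 13 pairs, 10 passed in DM, 2 in Npm1c, 1 in Flt3-ITD and 2 in WT HSPCs. The bait of Dhrs1 and Nop9 had 1.05 (SE 0.25, adjusted p = 0.0241), with means of 3.05 and 3.11 in DM, 1.83 and 2.01 in Npm1c, 2.28 and 2.61 in Flt3-ITD, and 2.46 and 2.22 in WT HSPCs. Its far ends include Irf9, a factor of the interferon response, and the proteasome activator genes Psme1 and Psme2. Of its 15 pairs, 11 passed in DM, 2 in Npm1c, 6 in Flt3-ITD and 8 in WT HSPCs. Rab31, a vesicle GTPase gene, had 1.03 (SE 0.23, adjusted p = 0.0215) with DM and WT level: 2.67 and 2.46 in DM, 2.07 and 2.03 in Npm1c, 2.10 and 1.87 in Flt3-ITD, and 2.54 and 2.46 in WT HSPCs. Of its 13 pairs, 6 passed in DM, 2 in Npm1c, 2 in Flt3-ITD and 8 in WT HSPCs. For Sprn, Dhrs1 with Nop9 and Rab31 too, the direction was thus partly set by the list. All 5 calls were lost without DM 1, DM 2 or Flt3-ITD 1, and each held in 1 to 4 of the 8 fits without 1 library (adjusted p up to 0.153), and all 5 were kept after quantile normalization. With limma's trend and robust options Gdf2, Ccl6 and Sprn were not past the threshold (adjusted p = 0.106, 0.0699 and 0.0575).

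For single pairs the fit called 499 of 88421 (0.564%), 371 with a negative (0.420%) and 128 with a positive interaction (0.145%). The pairs were mostly distant: 62.8% of the negative and 68.8% of the positive ones were over 1 Mb apart or on other chromosomes, against 5.21% of all pairs. A group with both libraries listed at 0 occurred in 72.8% of the negative and 82.0% of the positive ones, against 2.3% of all pairs. Of all pairs 15.9% were in the neutrophil list, against 1.89% of the negative and 6.25% of the positive ones. With limma's trend and robust options 2 pairs were called, and 0 to 73 when 1 library was left out, so the calls of single pairs are less stable than those of baits.

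Among pairs with a negative interaction, Cd244a, a receptor of natural killer cells, with chr14:90084435-90087987 was listed at 0 in DM and WT HSPCs, scored 5.19 and 5.08 in Npm1c and 69.8 and 84.8 in Flt3-ITD HSPCs (interaction -8.90, SE 0.41, adjusted p = 0.00189). It was called with the trend and robust options too. Neu3, a sialidase gene, with Rps3, a ribosomal protein gene 344.8 kb away, was listed at 0 in both DM libraries and scored 35.8 and 45.7 in Npm1c, 36.2 and 32.8 in Flt3-ITD and 30.8 and 18.8 in WT HSPCs (-5.87, SE 0.48, adjusted p = 0.0174). This is the one named pair in which the 3 other groups were all high and DM alone was at 0. Erap1, which trims peptides for MHC class I, with Cast, the calpain inhibitor, 173.8 kb away, was listed at 0 in DM and WT and scored 11 and 10.6 in Npm1c and 2.63 and 7.41 in Flt3-ITD HSPCs (-6.03, SE 0.58, adjusted p = 0.029).

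The others had the same order. Egln2, an oxygen-sensing hydroxylase, with Lsm14a (-6.66), and the baits of Ythdc1, a reader of methylated RNA (-6.11), and of securin, Pttg1 (-6.02), were at 0 in both WT libraries and at 0.37 or less in both DM libraries. In the single mutants they scored between 4.84 and 12.1. The bait of Mad2l1 with chr11:46691567-46694129 was at 0 in DM and WT and scored 18.4 and 11.1 in Npm1c and 22.1 and 3.41 in Flt3-ITD HSPCs (-7.27, SE 0.96, adjusted p = 0.0335). Apart from Neu3 with Rps3, which passed in every group but DM, the named negative pairs passed in single mutants alone. The order of the groups and the negative sign were thus partly set by the list.

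Among pairs with a positive interaction, one contact was captured from both ends. Tmpo, which encodes lamina-associated polypeptides that tether chromatin to the nuclear lamina, and Lta4h, the hydrolase that makes leukotriene B4, lie 2286.7 kb apart. With Tmpo as the bait the scores were 13.7 and 8.69 in DM, 0 in all 4 single-mutant libraries, and 3.37 and 8.74 in WT HSPCs (6.28, SE 0.61, adjusted p = 0.029). With Lta4h as the bait they were 12.8 and 7.23 in DM, 0 in all 4 single-mutant libraries, and 2.39 and 5.26 in WT HSPCs (5.61, SE 0.57, adjusted p = 0.0323). Both pairs were listed through DM alone, since 1 WT library was under 5 at each capture. The captures come from the same libraries and are not replicates, and a score listed at 0 does not show that the contact is absent.

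Chmp2a and Ube2m with Ppp5c had 3.89 and 5.02 in DM, 0 and 0 in Npm1c, 0 and 0.02 in Flt3-ITD, and 6.73 and 5.72 in WT HSPCs (5.27, SE 0.42, adjusted p = 0.0174). The single mutants were again at or near 0, but here WT was the highest group. This pair was listed through WT alone, since DM 1 was under 5. Prss16 with the histone gene H4c4 (4.94) and the bait of Mrpl46 and Mrps11 (4.95), mitochondrial ribosomal proteins, were also high in DM. For Mrpl46 and Mrps11 the scores were 8.11 and 9.46 in DM, 0 and 0 in Npm1c, 2.67 and 0 in Flt3-ITD, and 5.50 and 4.68 in WT HSPCs. Tcea1, a transcription elongation factor, with Hjurp, the chaperone of the centromeric histone, 83418.8 kb away, was at 0 in all 6 mutant libraries and scored 22.4 and 44.9 in WT HSPCs (5.03, SE 0.53, adjusted p = 0.0327).

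Kif11 with the Fgfbp3 region (5.55, SE 0.85) and Fgfbp3 with the Kif11 region (4.96, SE 0.63) also had WT as the highest group. Each of the named positive pairs was listed through DM alone or through WT alone, so the positive sign was partly set by the list. At none of the 16 named pairs did the call hold in all 8 fits without 1 library. Cd244a kept it in 5 and Rad51c with Rdm1 in 2, and 9 pairs lost it in every such fit.

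Npm1 was not analysed here. The Flt3 bait (chr5:147397844-147401780) had 3 listed pairs, too few for the test, with means of 2.56 and 3.10 in DM, 2.14 and 2.02 in Npm1c, 2.36 and 1.76 in Flt3-ITD, and 2.23 and 1.99 in WT HSPCs. The Flt3-ITD and WT libraries overlapped, and DM 1 and DM 2 were the highest.

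Gene lists that fit these alleles were read against the 7.20% of all baits with a negative and the 0.282% with a positive interaction. No list or marker bait had a positive call before quantile normalization. The HoxA and HoxB genes and cofactors, which Npm1c leukaemias express at high level, had 0 calls at 5 baits, with a median interaction of -0.17 against -0.21 over all baits. The genes of Flt3 and STAT5 signalling had 0 calls at 13 baits and a median of -0.37. Myc, a STAT5-responsive growth regulator, had -1.26 (SE 0.38, adjusted p = 0.0646), with group means of 2.90 in DM, 2.55 in Npm1c, 3.31 in Flt3-ITD and 1.70 in WT HSPCs. The stem and progenitor transcription factors had 2 negative calls at 10 baits, Sox4 and Tal1, with a median of -0.35.

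The morphogen and growth factor genes had 4 negative calls at 9 baits, Shh, Igfbp3, Dll1 and Angpt2, with a median of -0.22. The cell cycle genes had 3 at 10 baits, Mad2l1, Rad51c and Plk2, with a median of -0.35, while Mcm3, Mcm5, Mcm6, Cdc6, Pcna, Ccne2 and Top2a did not pass. The mitochondrial genes had 2 at 8 baits, Vdac3 and Uqcrh, with a median of -0.32. There were 0 calls at 11 baits of ribosomal and nucleolar genes (median -0.22), at 4 of chromatin regulators (-0.45), at 4 of interferon response genes (-0.38) and at 3 of cohesin genes (0.08). These lists are small and were drawn up with earlier results of the same libraries known, and no list was tested as a set.

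Marker baits of mature cells were looked at because lineage-negative marrow can hold some of them. There were 0 calls at 4 baits of mature neutrophil genes (median -0.04), 2 of early granulocyte and monocyte genes (0.08), 2 of megakaryocyte genes, 3 of T and NK genes and 1 of basophil, eosinophil and mast cell genes, and no B cell or macrophage marker bait had 10 pairs. Among the erythroid genes, Car1, a carbonic anhydrase gene, had group means of 1.81 in DM, 2.59 in Npm1c, 2.63 in Flt3-ITD and 2.62 in WT HSPCs (interaction -0.79, SE 0.28, adjusted p = 0.101). DM was also lowest at Slc40a1 (2.116 against 2.813 to 3.255) and Car2 (2.653 against 2.81 to 2.959). It was not lowest at Klf1, with means of 2.496 in DM, 2.43 in Npm1c, 2.983 in Flt3-ITD and 2.483 in WT HSPCs. Slc40a1, Car2 and Klf1 did not pass either. The part of a changed mixture of cell types in any of these interactions was not tested, and fewer cells of a type cannot be told apart from fewer contacts per cell.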

How the data were processed

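Per the labels' protocols, lineage-negative cells were fixed, cut with HindIII and enriched for promoters. The submitters' processing notes name the mouse build mm10; the aligner and the contact caller are not given in the sources used here. The authors deposited an interaction score per pair and library, with its scale unstated; no read counts were used. Replicates were biological duplicates per the labels, with 2 libraries a group.

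Of 88624 listed HSPC pairs, 203 outside autosomes and X were left out. Scores were taken as log2(score + 1) and averaged per bait over at least 10 pairs. The interaction was fitted to all 8 libraries with limma 3.58.1 (R 4.3.3; lmFit, contrasts.fit, eBayes), and p-values were adjusted by Benjamini-Hochberg over all baits or all pairs, with a threshold of 0.05. Library means were tested by exact permutation of the 8 libraries. The fit was tested on simulated data: of baits changed by 1 and 2 on the log2 scale it recovered 55% and 97%, and of pairs changed by 3 and 6 it recovered 11% and 74%.

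Genes were placed on baits by the RefSeq start (GRCm38.p6) or, with no promoter entry, by either gene end. Named were called baits with a gene and the same sign in all 16 choices of 1 library per group, the 15 largest per direction, and 8 pairs per direction (1 per bait), plus called list members and Flt3. Called neighbours of these baits were added after their values were seen. Members and lists were chosen with earlier results of these data known. Alternatives covered the scale, the pseudocount, the pair filter, the distance, the fit and each left-out library. One list member is not reported here.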

Additional observations from a re-analysis of the deposited data

Results flagged for a closer look

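The results below were picked out because the effect of one allele differed, by the interaction test itself, with and without the other allele. This held for 212 promoter baits and for 499 pairs, at an adjusted p of 0.05 (limma, Benjamini-Hochberg).

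Among baits with a negative interaction were Mad2l1 (-4.04), Vdac3 (-2.18), Arl4a (-2.17), Rad51c with Tex14 (-2.06), Olfr382 (-1.96), Olfr685 (-1.96), Shh (-1.92) and Igfbp3 (-1.91). They were followed by Zfp874a (-1.80), Zfp493 (-1.78), Rdh14 (-1.76), Gabarapl1 (-1.75), Olfr669 (-1.71), Cmpk1 (-1.71) and Fat4 (-1.67). The baits with a positive interaction were Fgfbp3 (2.20), Sprn (1.11), Gdf2 (1.09), Dhrs1 with Nop9 (1.05), Rab31 (1.03) and Ccl6 (1.01).

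Among single pairs, the bait was Cd244a (-8.90), Rad51c with Tex14 (-7.86), Mad2l1 (-7.27), Egln2 (-6.66), Ythdc1 (-6.11), Erap1 (-6.03), Pttg1 (-6.02) and Neu3 (-5.87) for the negative interactions. It was Tmpo (6.28), Lta4h (5.61), Kif11 (5.55), Chmp2a with Ube2m (5.27), Tcea1 (5.03), Fgfbp3 (4.96), Mrpl46 with Mrps11 (4.95) and Prss16 (4.94) for the positive ones.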

How the results depend on the processing

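With 2 libraries a group and an unknown depth, precision rests on the spread between duplicates. Of 27 alternatives for the 212 bait calls, the number was 125 with a pseudocount of 0.1, 342 with at least 5 and 72 with at least 20 pairs per bait, and 17 (without Flt3-ITD 2) to 386 (without Npm1c 1) with 1 library left out. It depended on which pairs were used: 70 with pairs passing in at least 2 groups, 1 in all 4 groups, 0 in the neutrophil list (30 at an unadjusted p under 0.05), 1 with pairs that passed in DM or WT and 581 with pairs that passed in Npm1c or Flt3-ITD. The median over baits was -0.006137 after quantile normalization, -0.7792 with no logarithm, 0.1372 on pairs that passed in DM or WT, -0.5423 on pairs that passed in Npm1c or Flt3-ITD, and 0.01669 with each library centred on its mean, an alternative chosen after seeing the data, which split the calls into 67 positive and 126 negative. The last change follows from the centring itself; the other causes were not tested.

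The 499 pair calls became 6 with a pseudocount of 5, 0 with no logarithm, 32 with pairs passing in at least 2 groups, 0 in all 4, 12 in the neutrophil list, 6 at most 1 Mb apart, 2 with limma's trend and robust options, and 0 to 73 with 1 library left out. The 12 calls among list baits became 7, 0 and 0 with pairs of at least 2 groups, all 4 groups and the neutrophil list, 6 and 7 with at least 1 and at least 20 pairs, 0 and 26 with pairs that passed in DM or WT and in Npm1c or Flt3-ITD, and 5 to 20 with 1 library left out. The interaction over different chromosomes was -3.943 to -3.102 with 1 library left out. Same-numbered libraries did not deviate together (r of -0.077 to 0.133), and a replicate block gave 186 bait and 6 pair calls; among the baits described it ended the call at Angpt2 (adjusted p = 0.065). With no logarithm Mad2l1 (0.0599), Plk2 (0.0719), Sox4 (0.0619), Tal1 (0.085), Angpt2 (0.0759) and Sprn (0.0696) were not past an adjusted p of 0.05. Nor were the chromosome 19 baits at 37230686 (0.0696) and 37336716 (0.0981). No named bait changed sign under any alternative run. The baits named for the largest interactions were picked for the same sign in every choice of 1 library per group. Their sign therefore could not change in fits without 1 library, and those fits do not test it. The refit on pairs that passed in DM or WT gave a value at only 13 of the named baits. Many other alternatives used the same list of pairs.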

Other observations

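After quantile normalization, and not before it, 4 list or marker baits had a positive interaction past the threshold, each with DM as the highest group. Over all baits these were 84 of 2833 (2.97%). The 4 were 1 of 10 stem and progenitor factor baits, 1 of 4 mature neutrophil, 1 of 13 Flt3 and STAT5, and 1 of 11 ribosomal and nucleolar baits. The other lists and marker sets had none. The pairs of these baits too were listed on the same scores. Klf4, a zinc-finger factor of myeloid cells, had means of 3.26 in DM, 1.82 in Npm1c, 2.43 in Flt3-ITD and 1.58 in WT HSPCs, and an interaction of 0.98 after quantile normalization (adjusted p = 0.0337, against 0.13 before). Mmp8, the neutrophil collagenase, had means of 3.02 in DM, 1.74 in Npm1c, 2.35 in Flt3-ITD and 1.73 in WT HSPCs (1.06, adjusted p = 0.017, against 0.117 before). Cyclin D1, Ccnd1, had 0.86 (adjusted p = 0.0434, against 0.236 before), and the ribosomal protein gene Rps14 had 0.82 (adjusted p = 0.0453, against 0.24 before). Whether these baits differ by genotype or by the general level of the libraries was not tested.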
